A study of Bos taurus with 12 samples.

Results

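The let-7 family was described here through its 8 mature guide strands in the bovine table, bta-let-7a-5p, bta-let-7b, bta-let-7c, bta-let-7d, bta-let-7e, bta-let-7f, bta-let-7g and bta-let-7i. They were taken by name from the 783 known bovine miRNAs listed, of which 336 had a read in any library, and all 8 members had reads in every library. The libraries were made from small RNA of extracellular vesicles (EVs, membrane particles that cells release) in blood plasma of crossbred Charolais- and Limousin-type beef heifers. Plasma was taken on Day 7 of an unstimulated (U) cycle and again on Day 7 of a superstimulated (S) cycle of the same animals. All heifers had first been synchronized with progesterone, gonadotrophin-releasing hormone and prostaglandin, and the S cycle followed FSH injections with prostaglandin and artificial insemination. Heifers were classed by their number of corpora lutea in the S cycle as high (H) or low (L) responders, which gave the groups UL, UH, SL and SH with 3 libraries each. The U sample always came before the S sample and before insemination, so the order of sampling, insemination and the hormone treatment cannot be told apart in a difference between cycles.

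Mammalian let-7 miRNAs derive from several genes, are blocked in their maturation by the LIN28 proteins in stem cells, and accumulate as cells differentiate. A miRNA finds its target messages mainly through the seed, bases 2 to 8 from its 5′ end, and known let-7 targets include HMGA2, RAS genes and LIN28 itself. Members are abundant in blood plasma and in ovarian somatic cells of many mammals.

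The 8 sequences are shown because the whole family differs by so few bases that the read counts depend on single positions. The capitals mark the seed, and the letters are those of the deposited table.
bta-let-7a-5p: tGAGGTAGtaggttgtatagtt
bta-let-7b: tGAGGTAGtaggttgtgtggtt
bta-let-7c: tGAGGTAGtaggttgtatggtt
bta-let-7d: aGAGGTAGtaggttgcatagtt
bta-let-7e: tGAGGTAGgaggttgtatagt
bta-let-7f: tGAGGTAGtagattgtatagtt
bta-let-7g: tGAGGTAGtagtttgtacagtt
bta-let-7i: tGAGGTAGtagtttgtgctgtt

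All 8 members carried the same seed, and with bta-miR-98 they were the 9 rows of the table that did so. Positions were counted from 1 at the 5′ end, with the first named member's base before the position. Of the 28 pairs of members, 4 differed by a single base. These were bta-let-7a-5p and bta-let-7c (A19G), bta-let-7a-5p and bta-let-7e (T9G), bta-let-7a-5p and bta-let-7f (G12A), and bta-let-7b and bta-let-7c (G17A). The most distant pair, bta-let-7d and bta-let-7i, differed at 6 positions, all outside the seed. The authors counted perfect matches. A read of one of these members would be counted for the other if a wrong base at that position was the base of the other. With another wrong base it would not be counted for a member. How often either happened was not tested. The sum of the family does not depend on reads that moved between members, but it does not hold the reads that were lost.

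RefSeq (assembly ARS-UCD2.0) lists 11 bovine let-7 genes. There were 3 genes for let-7a and 2 for let-7f, so the level of these mature miRNAs cannot be assigned to 1 gene. Within 10 kb of each other lay MIRLET7A-1, MIRLET7F-1 and MIRLET7D, and likewise MIRLET7A-3 and MIRLET7B. MIRLET7C lay beside MIR99A, MIRLET7E beside MIR99B and MIR125A, MIRLET7A-2 beside MIR100, and MIRLET7F-2 beside MIR98. MIRLET7G and MIRLET7I had no other miRNA gene within that distance. The files were made on UMD3.1, so no coordinates are given.

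The libraries held 21466 to 77433 reads of known miRNAs, with SH2 the smallest and SH3 the largest. The let-7 family made up 45.0, 47.6 and 44.1% of these reads in UL1 to UL3, and 47.0, 45.3 and 41.8% in UH1 to UH3. The shares were 51.7, 42.8 and 48.2% in SL1 to SL3, and 62.7, 43.0 and 42.2% in SH1 to SH3. Library SH1 stood apart with the highest share of all 12, and the others lay between 41.8 and 51.7%. The 95% Wilson interval of SH1 was 62.2 to 63.2%, which covers counting error only.

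**Figure D1:**
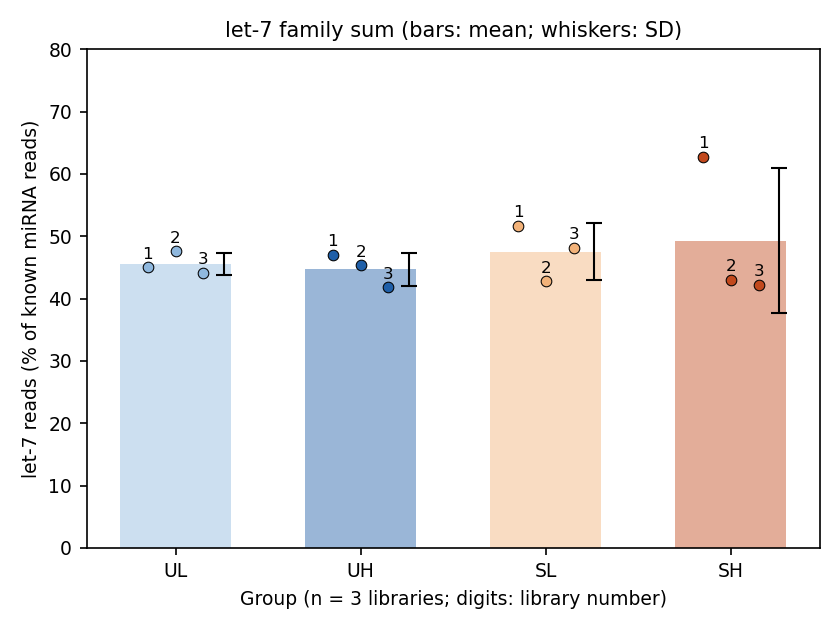
Share of known miRNA reads taken by the let-7 family (y axis, %) in the groups UL, UH, SL and SH (x axis). Points are the 3 numbered libraries of a group, bars the means and whiskers the SD, and SH1 at 62.7% lies above the other 11 libraries.

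The groups overlapped in every comparison of this share. In the U cycle the mean was 45.6% ± 1.79 (SD, n = 3) for UL and 44.7% ± 2.65 for UH, and in the S cycle it was 47.5% ± 4.51 for SL and 49.3% ± 11.6 for SH. In libraries joined by class and number the share was higher in the S cycle in 4 of 6 pairs. The mean over S libraries was 3.28 percentage points above that over U libraries. On the log2 scale, the difference of mean log2 shares, S minus U, averaged over the response classes, was 0.088, and without SH1 it was -0.0054. The log2 ratio of the mean share in SH to that in UH changed from 0.14 to -0.070 without SH1. The differences of the family sum between cycles and responses were smaller than the spread of the libraries within SH, where SH1 stood apart. Not all were smaller than the spread within other groups. S minus U was 3.28 points and SH minus UH 4.58 points, against an SD of 2.65 in UH. UH minus UL (-0.84 points) and SH minus SL (1.76 points) were smaller in size than the SD of either group compared.

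Levels of single members are given as TMM-normalized reads, which are reads scaled to the mean depth with trimmed-mean factors between 0.837 and 1.16. With 7 of the 8 members 22 bases long and bta-let-7e 21 bases long, length hardly enters the comparison between them. Over the 12 libraries bta-let-7b was the most abundant member, with a mean of 10644 normalized reads (7662 to 15606), and it was the most abundant known miRNA in each library. Next came bta-let-7a-5p with a mean of 5370 (3786 to 6923), ranked 2 or 3 in every library. The ranges of these 2 members did not overlap.

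bta-let-7f had a mean of 2050 normalized reads (1301 to 2541) and bta-let-7c a mean of 1922 (934 to 6041). These neighbours overlapped, and their order was not the same in all libraries. bta-let-7i followed with a mean of 704 (453 to 1680), and its range overlapped that of bta-let-7c but not that of bta-let-7e.

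The 3 scarcest members were bta-let-7e with a mean of 175 (92.6 to 310), bta-let-7g with 106 (73.1 to 153) and bta-let-7d with 74.7 (52.7 to 90.5), each overlapping the next in order. The lowest counts were 26 reads of bta-let-7d in SH2, 47 of bta-let-7g in SL3 and 91 of bta-let-7e in SH2, against at least 548 reads of bta-let-7c and 5006 of bta-let-7b in any library. The levels between members rest on equal capture of their sequences by the library kit, which was not tested.

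**Figure D2:**
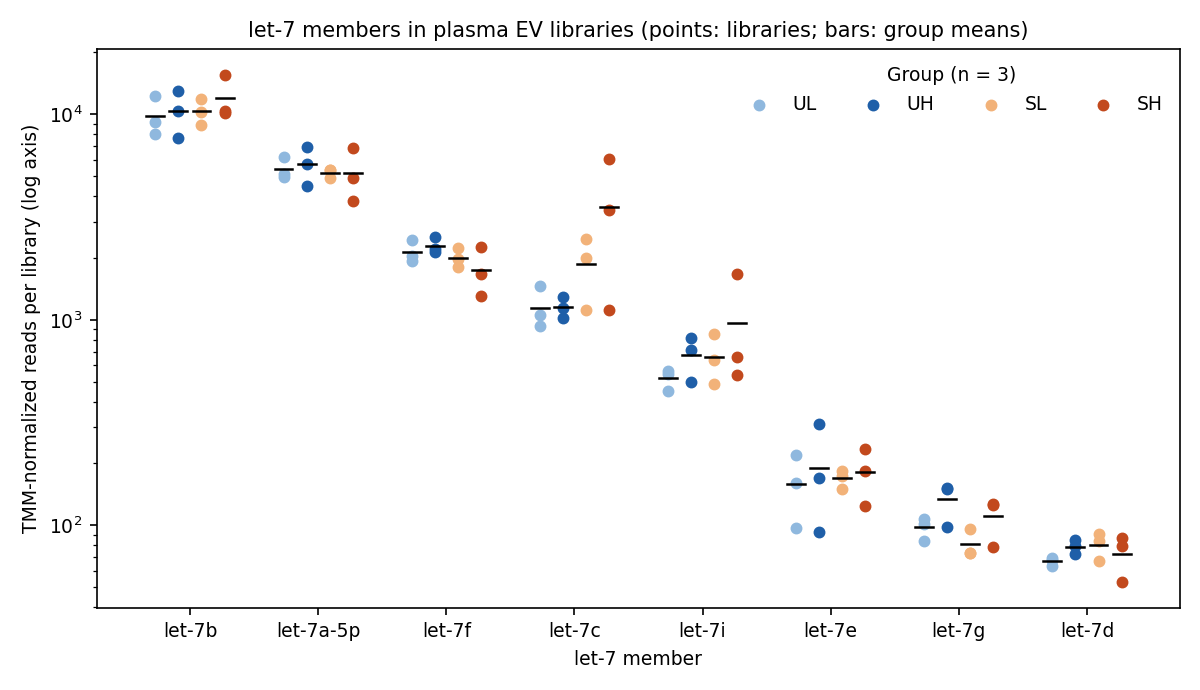
TMM-normalized reads per library (y axis, log scale) of the 8 let-7 members (x axis, in order of abundance), coloured by group. Points are libraries and black bars group means (n = 3). On the log scale the groups lie furthest apart for bta-let-7c, with a mean of 3522 in SH against 1153 in UH. bta-let-7i is next, with a mean of 960 in SH against 522 in UL.

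As to the composition of the family, bta-let-7b took 50.5% ± 2.99 (SD, n = 12) of the let-7 reads and bta-let-7a-5p 25.8% ± 3.27. Together with bta-let-7f at 10.0% ± 2.49 and bta-let-7c at 8.63% ± 4.73 they made up nearly all of them. bta-let-7i had 3.29% ± 0.956, and bta-let-7e, bta-let-7g and bta-let-7d stayed under 1.3% in every library. bta-let-7c had the largest SD of the 8 members although it was the fourth in abundance. The spread between the 3 libraries of a group was above the binomial counting error in 30 of 32 combinations of member and group, and above 3 times that error in 20. The exceptions were bta-let-7d in UL and bta-let-7e in SL.

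The bta-let-7c share of let-7 reads was 6.10, 6.40 and 5.15% in UL1 to UL3 and 6.13, 4.25 and 6.88% in UH1 to UH3. It was 12.04, 6.05 and 9.05% in SL1 to SL3, and 18.4, 5.94 and 17.2% in SH1 to SH3. Of the 6 S libraries, 4 lay above the highest U library, while SL2 and SH2 lay within the range of the U libraries. The Wilson intervals of the highest share, in SH1 (17.9 to 18.9%), and of the lowest S share, in SH2 (5.47 to 6.44%), were far apart.

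The share of bta-let-7a-5p, which differs from bta-let-7c only by A19G, moved the other way. It was 28.7, 27.1 and 28.2% in UL1 to UL3 and 27.1, 28.7 and 27.1% in UH1 to UH3. In the S cycle it was 23.7, 29.1 and 24.1% in SL1 to SL3 and 20.8, 26.1 and 19.1% in SH1 to SH3. The U libraries lay between 27.1 and 28.7%, and 5 of 6 S libraries lay below all of them.

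**Figure D3:**
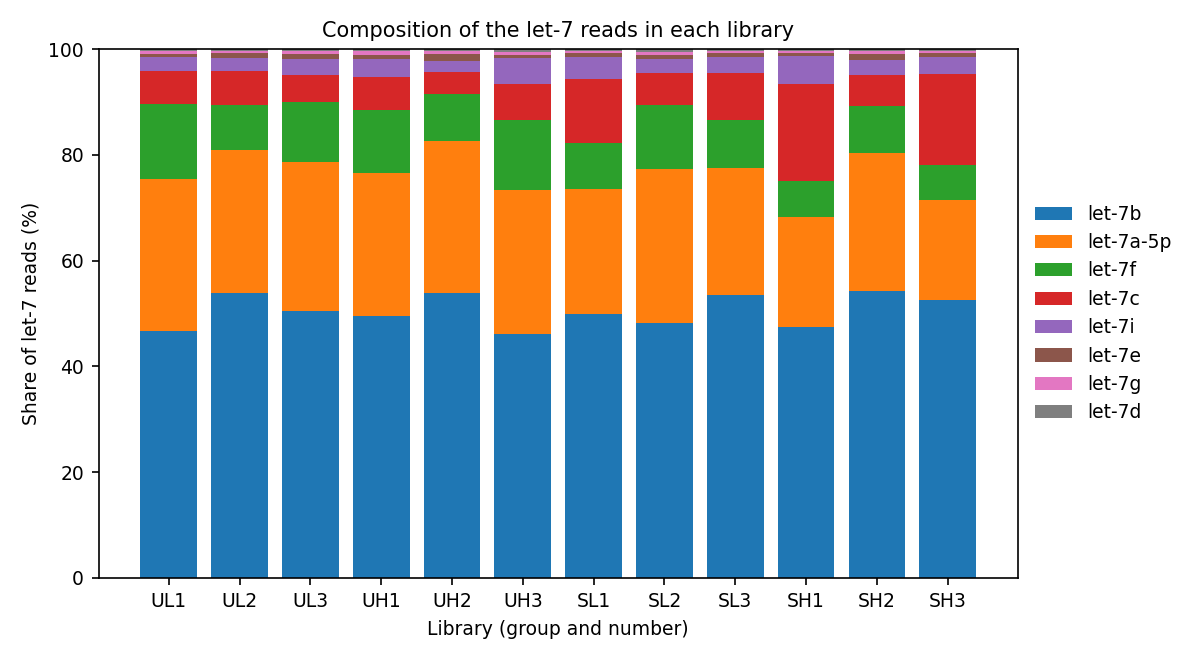
Share of let-7 reads (y axis, %) taken by each of the 8 members (colours) in each of the 12 libraries (x axis). The bta-let-7c segment is widest in SH1 (18.4%), SH3 (17.2%) and SL1 (12.04%), where the bta-let-7a-5p and bta-let-7f segments are narrow.

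In an exact two-sided permutation test of the cycle labels within each response class (400 arrangements, smallest possible p 0.005), the bta-let-7a-5p share fell by 4.05 percentage points from U to S (p = 0.03). In normalized reads the level of bta-let-7a-5p differed by -0.11 (SE 0.26) on the log2 scale between the cycles, with an adjusted P of 0.903 in limma, so the fall was one of its share and not shown for its level. The bta-let-7c share rose by 5.62 points (exact permutation p = 0.05). All 8 shares were tested, the p-values are unadjusted, and the shares add up to 100, so they are not independent. bta-let-7f changed by -2.69 points and bta-let-7g by -0.14 points (exact permutation p = 0.08 for each). The exact permutation p was 0.65 for bta-let-7b at 0.89 points and 0.49 for bta-let-7i at 0.42 points. bta-let-7d (-0.012 points) and bta-let-7e (-0.041 points) had exact permutation p-values of 0.775 and 0.77.

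With the library number within a class as a replicate block, that is with paired libraries, the exact sign-flip permutation p was 0.0625 for both bta-let-7a-5p and bta-let-7c, above the threshold of 0.05. With 6 pairs this test has few arrangements, so its p moves in coarse steps. The direction was shared by 5 of 6 pairs for each of the 2 members. Leaving out a library also ended the call for bta-let-7a-5p without UH2 (exact permutation p = 0.055), SL1 (0.06) or SL3 (0.06). For bta-let-7c it did so without UL3 (exact permutation p = 0.065), UH1 (0.095), UH2 (0.115), UH3 (0.08), SL1 (0.07) or SL3 (0.055). The directions held in each of these cases.

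Ratios between 2 members do not depend on the scaling of libraries. Per 100 reads of bta-let-7a-5p there were 21.2, 23.6 and 18.2 reads of bta-let-7c in UL1 to UL3 and 22.7, 14.8 and 25.3 in UH1 to UH3. The ratio was 50.9, 20.8 and 37.5 in SL1 to SL3, and 88.5, 22.8 and 90.2 in SH1 to SH3. SL1, SL3, SH1 and SH3 thus lay above every U library, and SL2 and SH2 did not. Per 100 reads of bta-let-7f, the reads of bta-let-7c ranged from 42.8 to 75.1 in the U libraries. They reached 138 in SL1, 101 in SL3, 266 in SH1 and 263 in SH3, against 49.7 in SL2 and 66.8 in SH2. bta-let-7c was thus more abundant than bta-let-7f in 4 S libraries and less abundant in the other 8.

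The members can also be grouped by the base at position 19, which is G in bta-let-7b and bta-let-7c, T in bta-let-7i and A in the other 5. Members with G took 52.8 to 60.2% of let-7 reads in the U libraries and 54.3 to 69.7% in the S libraries. The highest values were those of SH3 at 69.7% and SH1 at 65.8%. The ranges of the cycles overlapped, and no test was made of this grouping.

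The comparison of single members between groups asked which of them differed with response or cycle. Calls were made with limma at the study's thresholds, a log2 fold change (log2 FC) of at least 1 in size and an unadjusted P of at most 0.05. Differences between responses are given as H minus L and those between cycles as S minus U.

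In the U cycle (UH vs. UL) 0 of 8 members were called, where 2.64% of the 227 miRNAs tested were. All 8 differences were above 0 with TMM scaling, between 0.03 for bta-let-7c and 0.43 (SE 0.30) for bta-let-7g. This count was 4 of 8 with library sizes alone and 5 of 8 when libraries were scaled to their let-7 reads. The let-7 scaling fixes the family sum in every library, so it cannot show a shared rise. With TMM the median was 0.14 against 0.04 over all tested, and 0 of 8 had an unadjusted P under 0.05. The lowest adjusted P in limma was 0.930. Normalized reads of bta-let-7d were 63.2, 69.3 and 67.8 in UL and 84.5, 79.0 and 72.8 in UH. In the 4 comparisons of groups this was the only case of a member whose libraries did not overlap, where 7.49% of all miRNAs tested did not overlap in UH vs. UL. As a share of known miRNA reads, without TMM, bta-let-7d made up 0.165, 0.145 and 0.165% in UL and 0.188, 0.149 and 0.184% in UH, and the groups overlapped. The difference for bta-let-7d was 0.23 (SE 0.30), under the threshold of fold change. For bta-let-7c the sign turned to -0.083 with library sizes alone. It turned to -0.055 with the let-7 scaling, which gives a difference relative to the family sum.

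In the S cycle (SH vs. SL) 0 of 8 members were called either, against 5.47% of the 201 miRNAs tested, and 0 had an unadjusted P under 0.05. The groups overlapped for every member, where 8.96% of miRNAs did not overlap. The differences ran from -0.23 for bta-let-7f to 0.68 (SE 0.61) for bta-let-7c, with a median of 0.13 against -0.08 over all tested, and the lowest adjusted P in limma was 0.697. Without SH2 bta-let-7c passed the threshold with a log2 FC of 1.36 (adjusted P in limma 0.223), and without SH1 its difference was 0.14. Over the scalings the median of all tested miRNAs moved by -0.16 to 0.18 in this comparison, and the difference of bta-let-7c from it stayed between 0.74 and 0.77.

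**Figure D4:**
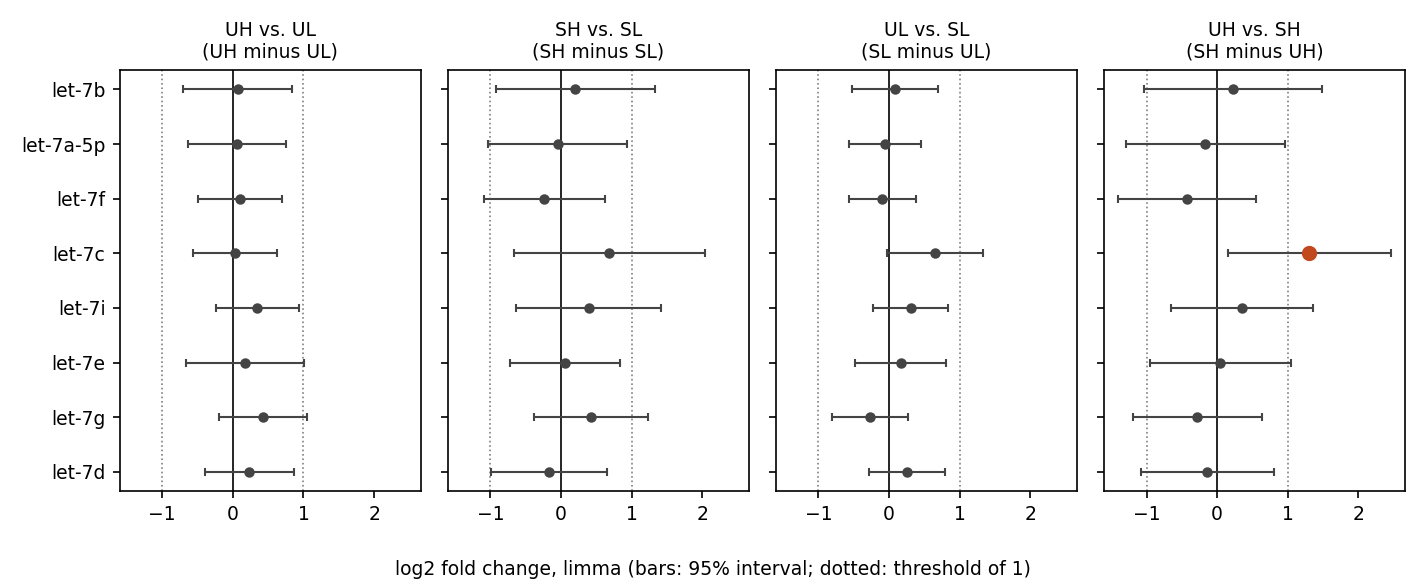
Fitted log2 fold change of the 8 let-7 members (points) with 95% intervals (bars) from limma in 4 comparisons of groups with 3 libraries each, with dotted lines at the threshold of 1. bta-let-7c in UH vs. SH (log2 FC 1.31, in colour) is the member called, and its interval runs from 0.15 to 2.46.

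Between cycles in H heifers (UH vs. SH), bta-let-7c was called as higher in SH, which makes 1 of 8 members against 5.66% of the 212 miRNAs tested. Its normalized reads were 1293, 1025 and 1141 in UH1 to UH3 and 6041, 1111 and 3415 in SH1 to SH3. SH2 lay between the UH libraries, so the groups overlapped, as they did for all 8 members, where 7.55% of miRNAs did not overlap. The log2 FC was 1.31 (SE 0.55), a 2.47-fold higher level, with an unadjusted P of 0.029 and an adjusted P of 0.735 in limma, so it did not pass the correction over all miRNAs. The other 7 members lay between -0.43 for bta-let-7f and 0.35 for bta-let-7i, the median of the 8 was -0.05 against -0.14 over all tested, and 0 of the 7 had an unadjusted P under 0.05.

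The call rested on single libraries. It was lost without SH1 (log2 FC 0.76), SH3 (1.17), UH1 (1.39), UH2 (1.22) or UH3 (1.30). Without SH2 the log2 FC was 1.98 and the adjusted P in limma was 0.0076. The call was also lost with the mapped reads as library sizes (1.23) and without the mean-variance trend (unadjusted P 0.079 in limma). Over the scalings the median of all tested miRNAs moved by -0.14 to 0.06, and bta-let-7c stayed 1.34 to 1.45 above it. With the replicate block the adjusted P in limma was 0.342, and over the 16 alternatives it ran from 0.0076 to 0.923.

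In L heifers (UL vs. SL) 0 of 8 members were called, against 2.34% of the 214 miRNAs tested, and 0 had an unadjusted P under 0.05. The groups overlapped for all 8, where 7.94% of miRNAs did not. Normalized reads of bta-let-7c were 1052, 1455 and 934 in UL1 to UL3 and 2481, 1115 and 2004 in SL1 to SL3. SL1 and SL3 lay above all UL libraries and SL2 between them. The log2 FC was 0.65 (SE 0.31, adjusted P 0.701 in limma), and it ranged from 0.41 without SL1 to 0.98 without SL2. The other members lay between -0.27 for bta-let-7g and 0.31 for bta-let-7i, and the median of the 8 was 0.13 against -0.07 over all tested.

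Over both response classes (S vs. U) 0 of 8 members were called, against 4.62% of the 238 miRNAs tested. The ratio of S to U for bta-let-7c was 4.67 in pair H1, 2.99 in H3, 2.36 in L1 and 2.15 in L3. It was 1.08 in H2 and 0.766 in L2, so the level was higher in the S cycle in 5 of 6 pairs. The log2 FC of 0.98 (SE 0.34) was just below the fold threshold, and its unadjusted P of 0.0097 was the only one of the 8 members under 0.05, with an adjusted P of 0.540 in limma. The threshold was passed with median-of-ratios size factors (1.02) and without UL2 (1.07), UH1 (1.02), SL2 (1.15) or SH2 (1.32). This fit took the 12 libraries as independent. With the replicate block, which pairs the libraries of a heifer, the unadjusted P in limma was 0.0039 and the adjusted P 0.132. Over the 21 alternatives the adjusted P in limma ran from 0.0233 without SH2 to 0.764 without SL1.

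The change of bta-let-7c was 0.66 larger (SE 0.68) on the log2 scale in H than in L heifers, with an adjusted P of 0.931 in limma for this interaction, which therefore was not shown to differ from 0. The interval ran from -0.77 to 2.08. No member was called for the interaction, against 5.04% of the 238 miRNAs tested, and 0 had an unadjusted P under 0.05. Without SH2 the interaction of bta-let-7c was 1.33 and passed the thresholds (adjusted P 0.421 in limma), and without SH1 it was 0.11.

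**Figure D5:**
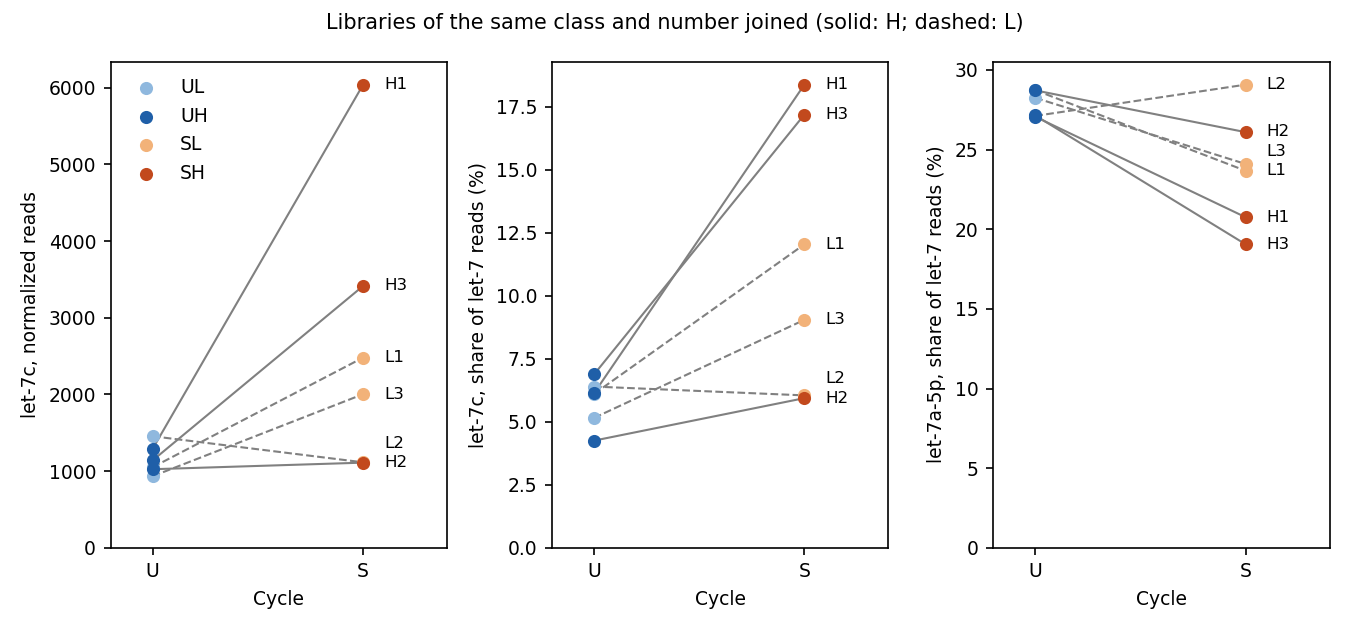
Values in the U and S cycle (x axis) for bta-let-7c in normalized reads, bta-let-7c as a share of let-7 reads (%) and bta-let-7a-5p as a share of let-7 reads (%), with libraries of the same class and number joined. bta-let-7c ended higher in 5 of 6 pairs, all but L2, and the bta-let-7a-5p share ended lower in the same 5 pairs.

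Pair changes of the other members were smaller than those of bta-let-7c in L1, L3, H1 and H3, but in L2 and H2 some were larger. bta-let-7a-5p had ratios of S to U as low as 0.705 in H2 and was higher in S in 2 of 6 pairs, H1 and L3. bta-let-7e ranged from 0.595 in H2 and 0.686 in L2 to 1.79 in L1, and bta-let-7d from 0.668 in H2 to 1.31 in L2. These 3 members had pairs in both directions. bta-let-7f was lower in the S library in 5 of 6 pairs, with ratios of S to U from 0.590 in H3 to 0.967 in L3 and 1.16 in L2. bta-let-7g was lower in 5 of 6 pairs too, from 0.678 in L1 to 0.838 in H2, and 1.15 in L2. Their differences over both classes were -0.26 (SE 0.23) and -0.28 (SE 0.23), and neither passed the test (adjusted P 0.721 in limma for both). bta-let-7i was 2.35-fold higher in SH1 than in UH1 and 1.88-fold higher in SL1 than in UL1, and between 0.808 and 1.17 in the other pairs. bta-let-7b was higher in 4 of 6 pairs, with 8050, 12245 and 9151 normalized reads in UL1 to UL3 and 10429, 12979 and 7662 in UH1 to UH3. In the S cycle it had 10281, 8894 and 11854 in SL1 to SL3 and 15606, 10150 and 10428 in SH1 to SH3. SH1 was the highest library for bta-let-7b, bta-let-7c and bta-let-7i.

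The 6 miRNAs that share a primary transcript or cluster with let-7 genes in mammals were followed beside them, namely miR-98, miR-99a-5p, miR-99b, miR-100, miR-125a and miR-125b. In each of the 6 comparisons 0 of these 6 were called, and 0 had an unadjusted P under 0.05. bta-miR-99a-5p, whose gene lies beside that of let-7c, had 58.6 ± 6.60 (SD, n = 3) normalized reads in UL and 50.8 ± 9.62 in UH, against 70.01 ± 13.4 in SL and 72.8 ± 36.2 in SH. bta-miR-125b, the mammalian relative of the first worm developmental timing miRNA, had 472 ± 83.1 in UL and 458 ± 14.2 in UH, against 615 ± 301 in SL and 955 ± 544 in SH. Their differences in UH vs. SH were 0.39 (SE 0.51) and 0.83 (SE 0.50), against 1.31 for bta-let-7c. bta-miR-125a, near the gene of let-7e, differed by -0.27 (SE 0.47) in that comparison.

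The remaining rows with the seed or the name were scarce. bta-miR-98, the ninth miRNA with the let-7 seed, had 5 to 40 reads per library, and its largest difference, in UH vs. SH, was -0.42 (SE 0.62). bta-let-7a-3p, the strand opposite to bta-let-7a-5p, had 3 reads in UH3 and 0 in the other libraries.

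The pattern of each member over the 12 libraries was compared with that of the other 7 by Pearson correlation of log2(normalized reads + 1), given as a description, since all values of a library share its depth and scaling factor. Of the 28 pairs 25 had an r above 0, with a median of 0.29. The highest were bta-let-7b with bta-let-7e (r = 0.86) and bta-let-7c with bta-let-7i (r = 0.81). The lowest was bta-let-7c with bta-let-7f (r = -0.33). bta-let-7c and bta-let-7a-5p, which differ by 1 base, had an r of 0.02.

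Among 99 miRNAs outside the family with a mean of at least 10 reads, bta-miR-196a (r = 0.91), bta-miR-125b (r = 0.90) and bta-miR-199a-3p (r = 0.89) were most like bta-let-7c over the 12 libraries. For bta-miR-199a-3p, a miRNA enriched in mesenchymal cells, the normalized reads were 68.2, 35.9 and 228 in UH1 to UH3 and 1005, 87.2 and 419 in SH1 to SH3. It was 87.4, 67.4 and 54.8 in UL1 to UL3 and 455, 60.6 and 123 in SL1 to SL3. The libraries SH1, SL1 and SH3 were the highest for bta-miR-199a-3p as for bta-let-7c, with SH2 and SL2 among the low ones. Most like bta-let-7b were bta-miR-100 (r = 0.52), bta-miR-10a (r = 0.48) and bta-miR-196a (r = 0.47), and most like the family sum bta-miR-148a (r = 0.60), bta-miR-196a (r = 0.55) and bta-miR-152 (r = 0.52). By rank (Spearman) these correlations were 0.50, 0.62 and 0.24 for bta-let-7b and only 0.27, 0.26 and 0.13 for the sum. SH1 had the highest normalized reads of the sum (32872), bta-miR-148a (848), bta-miR-196a (184) and bta-miR-152 (32.5). bta-miR-148a, singled out after its values were seen, had an r of 0.97 with bta-let-7i.

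Markers of cell types that can release EVs into plasma were listed beside these values. The 5 mesenchymal markers (miR-199a-3p, miR-199a-5p, miR-143, miR-145 and miR-214) summed to 93.9 to 189 normalized reads in UL and 105 to 274 in UH, and to 104 to 544 in SL and 93.3 to 1186 in SH, with none of the 5 at 0 throughout a group. The highest sums were those of SH1 (1186), SH3 (736) and SL1 (544), the libraries with the highest bta-let-7c shares, and those of SH2 (93.3) and SL2 (104) were as low as in the U cycle. Most of the sum was miR-199a-3p (1005 of 1186 in SH1 and 455 of 544 in SL1), which is also among the miRNAs most like bta-let-7c above. The 5 markers did not move together. miR-199a-5p was highest in the same 3 libraries (51.5, 34.7 and 22.5 in SH1, SL1 and SH3). miR-143 was highest in SH3 (208) and SH1 (121), but was 37.2 in SL1 against 72.5 in UL1. miR-145 was highest in SH3 (82.1), but was 5.42 in SH1 and 11.2 in SL1 against 10.0 to 34.5 in the U libraries. miR-214 was 2.71 in SH1 and 4.26 in SH3, and at most 6.20 in any library, in SL1. The 3 erythroid markers (miR-451, miR-486 and miR-144) summed to 991 to 2782 in the other 11 libraries and 8438 in SH3. Nearly all of the sum in SH3 was miR-486 (8394). In that library miR-451 was 43.8, against 45.6 in UL1, and miR-144 was 0.608, against 7.44 in UL1. The 3 endothelial and platelet markers (miR-126-3p, miR-126-5p and miR-223) summed to 4796 to 7424 in UL and 5641 to 12494 in UH, and to 4214 to 7071 in SL and 2571 to 8351 in SH. The lowest of these sums were those of SH3 (2571), SH1 (3038) and SL1 (4214), again the libraries with the highest bta-let-7c shares. These sums were carried by miR-126-3p (1433, 2031 and 3051 in SH3, SH1 and SL1), whereas miR-223 was at 869, 775 and 659 there, within its range of 359 to 1017 over all libraries. The lymphocyte markers (miR-150, miR-142-3p, miR-142-5p and miR-155) summed to 1185 to 2662 over all libraries, the muscle markers (miR-1, miR-133a, miR-133b and miR-206) to 38.1 to 164 with 1722 in UL1, and the liver marker miR-122 ranged from 48.7 to 647. The part of these sources in the bta-let-7c values was not tested. More EVs from a cell type and more copies of a miRNA per EV cannot be told apart in plasma.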

How the data were processed

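Small RNA of plasma EVs was sequenced with UMIs. The authors collapsed reads by UMI with Cutadapt, mapped them with Bowtie2 2.2.2 to UMD3.1 and kept perfect matches to miRBase entries. They deposited a score for each miRNA and library, its tags per 1000000 reads mapped, with decimals cut off. Dividing by the step of 1 read gave back whole reads, with 0 values unexplained, for 21466 to 77433 known miRNA reads per library. Because the deposited values are cut, no count test was run.

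TMM factors were computed over the 12 libraries. limma 3.58.1 (R 4.3.3; lmFit, eBayes with a mean-variance trend) was fitted to log2(normalized reads + 1) for miRNAs with at least 1 read in 2 of 3 libraries of a group, using the groups compared, or all 4 for S vs. U and the interaction. Adjusted P values are Benjamini-Hochberg values over all miRNAs tested. Shares were tested by exact permutation. Intervals are Wilson intervals and cover counting error only. Tables were made in Python 3.11.15 (pandas 2.3.3, numpy 2.4.6), permutations with scipy 1.17.1 and plots with matplotlib 3.10.9.

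Within a group each library was of another heifer. Library numbers were taken to mark the heifer in both cycles, from the study's numbering of heifers within a class. The correlations of deviations from group means between same-numbered libraries were 0.10, 0.06 and -0.05 in L and 0.05, 0.21 and 0.13 in H. Named miRNAs were all 8 members, rows with their seed or name, 6 cluster partners and the 3 miRNAs most like bta-let-7b, bta-let-7c and the sum. The members and lists were chosen with earlier results of these data known. The fits were tested on simulated data. Alternatives were other library scalings, filters and pseudocounts, the replicate block, no trend, all 4 groups in a fit, the members as their sum, centred log-ratios and leaving out each library. Scaling to let-7 reads was added after seeing the data. It fixes the family sum in every library, so its values are differences relative to that sum.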

Additional observations from a re-analysis of the deposited data

How the results depend on the processing

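Over 6 comparisons, 8 shares and the family sum, most alternatives kept direction and side of the threshold. Leaving out each library gave 0 to 1 members called in SH vs. SL, UH vs. SH, S vs. U and the interaction, and 0 in UH vs. UL and UL vs. SL. In UH vs. SH 0 were called with mapped reads as library sizes, with no mean-variance trend and with the members replaced by their sum, which removes the member by construction. In S vs. U 1 was called with median-of-ratios size factors. For the family share, UH vs. UL turned from a log2 ratio of -0.027 to 0.089 in normalized reads and 0.30 in deposited tags. Without each library in turn the log2 ratio of mean shares ran from -0.064 to 0.019 in UH vs. UL and -0.16 to 0.15 in SH vs. SL. It ran from -0.070 to 0.24 in UH vs. SH and -0.0033 to 0.13 in UL vs. SL. For S vs. U the difference of mean log2 shares, averaged over the response classes, ran from -0.0054 to 0.14. The shares of let-7 reads, S minus U, ran from -5.08 to -3.32 points for bta-let-7a-5p, 4.48 to 7.59 for bta-let-7c, -0.019 to 1.89 for bta-let-7b, -0.035 to 0.0061 for bta-let-7d, -0.12 to 0.060 for bta-let-7e, -3.40 to -1.96 for bta-let-7f and -0.19 to -0.11 for bta-let-7g. With the replicate block, that is with paired libraries, the shares of bta-let-7a-5p (-4.05 points) and bta-let-7c (5.62 points) had an exact permutation p of 0.0625. No other call changed. In UH vs. UL and SH vs. SL the block joined different heifers by library number, so it was no pairing of an animal there. As a centred log-ratio bta-let-7f changed by -0.38 (exact permutation p = 0.04). Among single members, bta-let-7c in UH vs. UL turned to -0.083 with library sizes without TMM and -0.055 when scaled to let-7 reads, and ran from -0.11 to 0.21 without each library. In S vs. U bta-let-7d turned to -0.0099 with mapped reads and -0.070 when scaled to let-7 reads (-0.012 to 0.17 without each library), and bta-let-7e to -0.024 when scaled to let-7 reads (-0.11 to 0.32 without each library). The causes were not tested beyond the construction named.

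With 3 libraries a group, a log2 FC under 1 was often within the spread between libraries, whatever the depth of the abundant members. In SH2, the smallest library, 3 reads stood for 6.08 normalized reads, so depth limits bta-miR-98 and bta-let-7a-3p and also bta-let-7d, whose spread of shares within groups was 0.916 to 1.72 times the counting error, bta-let-7e in SL (0.198 times) and bta-let-7g in UH, where the spread was also close to the counting error.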
